A study of Saccharomyces cerevisiae with 21 samples.

Results

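Barcoded strains of budding yeast were followed in 4 pools in which HNM1 (YGL077C) is paired with MAM33 (YIL070C), RBD2 (YPL246C), ERG11 (YHR007C) or PLM2 (YDR501W). The pools were taken by name, as HNM1_MAM33, HNM1_RBD2, HNM1_ERG11 and PLM2_HNM1, with every strain barcode in every library. The series has 9 pools that hold HNM1, and the HNM1 pools below are these 4 unless others are named. Each pool holds 361 barcodes, so the 4 pools hold 1444 of the 22382 barcode-by-pool combinations of the series. A filter on low counts, a mean of at least 10 reads, left 954 of the 1444 for testing, with 243 in HNM1_MAM33, 182 in HNM1_RBD2, 267 in HNM1_ERG11 and 262 in PLM2_HNM1. Over the whole series 15974 combinations passed that filter, 325 of them in the pool named noPPI_reference, against which the HNM1 pools were set. Nothing read from the counts entered the choice of the 4 pools.

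The study asks how genetic variation across the genome affects interactions between proteins in living yeast. All groups used the same in-house library of strains with chromosomal barcodes, grown in minimal medium with glucose and leucine for 96 h, with passages every 24 h. The groups with 10 µg/mL methotrexate (MTX) had MTX alone, MTX with 0.2 µM 5-FC, MTX with 100 µM fluconazole, MTX with 50 mM metformin, or MTX with 17.5 µM trifluoperazine. The groups without MTX had the same 4 drugs at the same doses, or no drug. There were 2 replicates, A and B, for each of the 10 groups, and 1 further library from time 0. The labels state neither whether A and B were separate cultures nor what reporter parts the reference pool carries, so p-values measure the spread between these samples only. The strains' genotypes were not used here, and no locus was mapped.

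HNM1 is the plasma membrane transporter through which yeast takes up choline and ethanolamine, the head groups that the Kennedy pathway builds into phospholipids. In a protein-fragment complementation assay, parts of the enzyme dihydrofolate reductase are fused to 2 proteins and regain activity when the proteins come together. MTX blocks the yeast's own enzyme but not the reassembled one, so a strain in which the pair interacts well is favoured when MTX is present. Of the partners, MAM33 is an acidic protein of the mitochondrial matrix, RBD2 a rhomboid-like membrane protein, ERG11 the lanosterol demethylase of ergosterol synthesis and the target of fluconazole, and PLM2 a nuclear protein with a forkhead-associated domain.

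Total reads ranged between 5370053 and 10620612 in libraries sampled after 96 h, and the time 0 library had 2412905. One HNM1 pool in 1 such 96 h library had between 5944 and 311344 reads (median 89108 over 80 pool-libraries). The smallest was HNM1_RBD2 with MTX alone, replicate A, and its replicate B stood apart from it: strain 756 held 36.5% of the pool in B and 0.488% in A. In HNM1_ERG11 in fluconazole with MTX, strain 838 held 66.6% in replicate A and 0.608% in B. In the same pool in fluconazole without MTX, strain 642 held 0.0181% in A and 49.4% in B. Across strains, Pearson's r between the MTX effects of A and B was 0.649 for HNM1_RBD2 without drug, the second lowest of 62 pools, whose median was 0.891. It was 0.521 for HNM1_ERG11 in fluconazole, where the median over pools was 0.70. The counts of calls in these pools are given below with and without these libraries.

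MTX narrowed every HNM1 pool to few strains. The effective number of strains, the exponential of the Shannon entropy of the strain shares, says how many equally common strains would give the same diversity. In HNM1_MAM33 without drug it was 13.1 and 14.1 with MTX, against 67.2 and 86.1 without MTX (replicates A and B). In HNM1_ERG11 it was 13 and 10.1 with MTX, against 71.7 and 74.5 without. In PLM2_HNM1 it was 8.17 and 9.04 with MTX, against 47.4 and 50.0 without. The values with MTX lay far below those without in these 3 pools. HNM1_RBD2 had 26.1 and 9.43 with MTX, against 61.2 and 66.3 without, so its replicates with MTX were spread more widely but still below both others.

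Over the 5 media, HNM1_MAM33 averaged 14.5 ± 3.30 effective strains with MTX and 61.5 ± 14.0 without (SD, n = 10 each), a difference of −46.98 (two-sided exact permutation test within media, adjusted p = 0.000322 over 5 pools). HNM1_ERG11 averaged 12.8 ± 4.37 with MTX and 56.5 ± 18.1 without. PLM2_HNM1 averaged 10.7 ± 4.15 with MTX and 51.5 ± 7.33 without. Both differences, −43.75 and −40.85, had the same exact p of 0.000257 as HNM1_MAM33, the smallest that 7776 arrangements allow. HNM1_RBD2 averaged 20.4 ± 8.80 with MTX and 50.3 ± 18.9 without, a difference of −29.93 (exact p = 0.00129). At time 0, HNM1_MAM33 held 72.9 effective strains, HNM1_RBD2 66.3, HNM1_ERG11 64.8, PLM2_HNM1 50.2 and the reference pool 172.

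Fluconazole was the medium in which this pattern broke. HNM1_RBD2 held 41.4 and 17.6 effective strains in fluconazole with MTX, against 20.0 and 11.2 in fluconazole without MTX, so the groups overlapped. Without MTX, strain 409 alone held 41.9% and 55.3% of that pool. HNM1_ERG11 held 4.90 and 11.6 with MTX, against 51.7 and 12 without, with the low value without MTX in the replicate where strain 642 led. In the other media, including trifluoperazine, no HNM1 pool had overlapping groups. PLM2_HNM1 in trifluoperazine was the narrowest, with 3.79 and 5.90 effective strains with MTX, against 60.5 and 63.5 without.

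**Figure D1:**
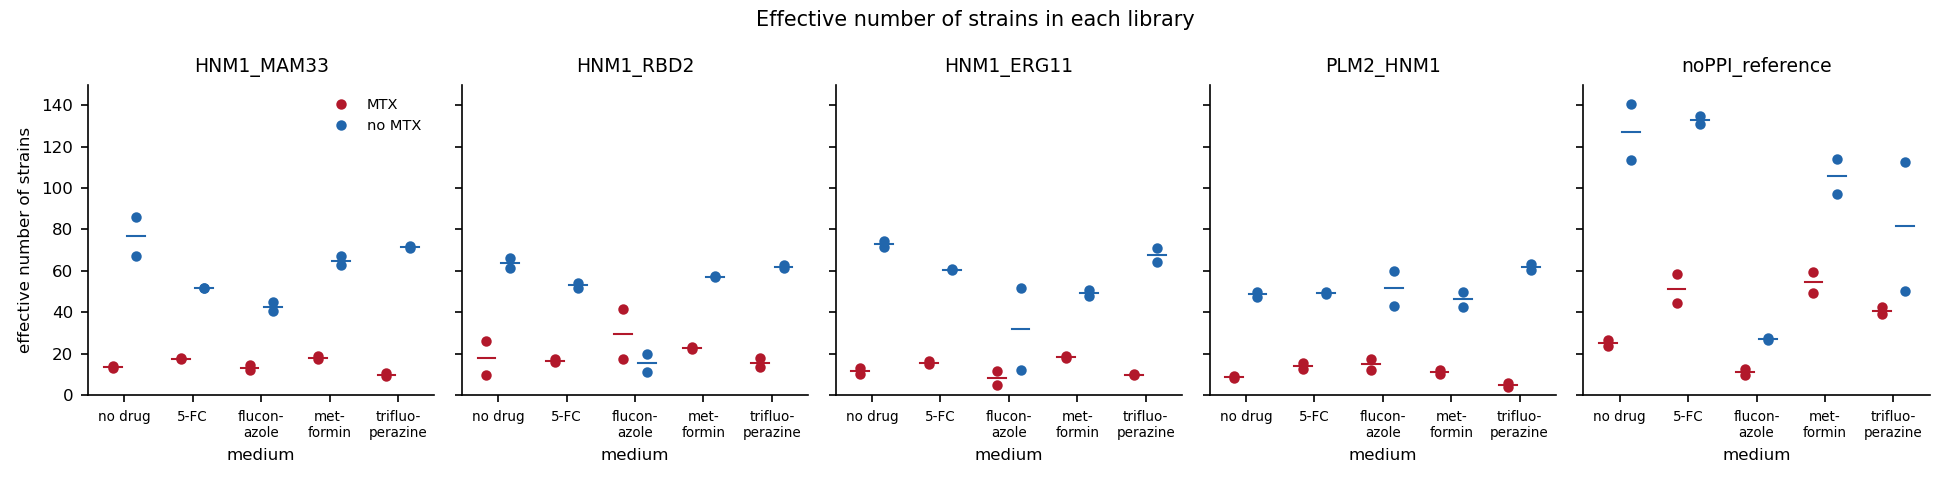
Effective number of strains in each library for the 4 HNM1 pools and noPPI_reference, by medium, with MTX left of no MTX. Points are libraries and bars are means of replicates A and B. In HNM1_RBD2 in fluconazole the points with MTX (41.4 and 17.6) overlap those without MTX (20.0 and 11.2), and in the other 4 media of that pool they lie below.

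The reference pool narrowed too, to 36.5 ± 17.8 effective strains with MTX, against 94.8 ± 43.7 without (SD, n = 10 each; difference −58.25, exact p = 0.000257). On the log2 scale, and relative to the reference pool in the same library, PLM2_HNM1 narrowed further by −1.003 (exact permutation test within media, adjusted p = 0.00103 over 4 pools). HNM1_MAM33 narrowed further by −0.71 (adjusted p = 0.0036). The media differed: without drug the log2 ratio of effective strains with MTX over those without was −2.50 in both pools, beside −2.35 in the reference pool. In trifluoperazine it was −3.68 in PLM2_HNM1 and −2.86 in HNM1_MAM33, beside −0.998 in the reference pool. The replicates of the reference pool in trifluoperazine without MTX differed, with 112 effective strains in A and 50.4 in B. In that replicate B strain 521 held 30.3% of the reference pool. HNM1_ERG11 narrowed further by −0.73 (adjusted p = 0.046), but adjusted p reached 0.189 when single libraries were left out. That call was lost without any 1 of 10 of the 20 libraries: with MTX, 5-FC B, fluconazole A, metformin B, trifluoperazine A, trifluoperazine B and no drug B, and without MTX, fluconazole A, metformin B, trifluoperazine B and no drug A. HNM1_RBD2 gave 0.13 (adjusted p = 0.711), and −0.03 without its shallow library with MTX alone, replicate A. The reference counts are the same in all 4 tests, so these are not independent of each other.

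How much of the narrowing came from any single strain was not measured. Strain 838 had the highest mean share with MTX in each HNM1 pool, over 10 libraries. Without drug it held 30.6% and 33.9% of HNM1_MAM33 with MTX, against 10.8% and 9.95% without MTX. It held 50.7% and 54.7% of HNM1_ERG11 with MTX, against 6.95% and 10.6% without. It held 63.7% and 61.3% of PLM2_HNM1 with MTX, against 19.7% and 13.7% without. In each of these pools both replicates with MTX lay above both without. In HNM1_RBD2 the strain held 39.9% and 12.1% with MTX, against 4.13% and 5.34% without, so both replicates with MTX again lay above both without, but differed by more than 3 times from each other.

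The log2 fold change of strain 838 without drug was 1.64 in HNM1_MAM33 (adjusted p = 0.0032), 2.46 in HNM1_RBD2 (0.0038), 2.58 in HNM1_ERG11 (0.03) and 1.90 in PLM2_HNM1 (0.00094), by edgeR's quasi-likelihood test. The call in HNM1_RBD2 was lost without MTX replicate A, and the call in HNM1_ERG11 was lost without any 1 of its 4 libraries (highest adjusted p = 0.156). In PLM2_HNM1 it was lost under TMM scaling over whole libraries. The strain was not particular to HNM1: it was called higher in 45 of the 62 pools, with a median log2 fold change of 1.79. In the reference pool it held 4.93% and 10.9% with MTX, against 4.36% and 2.38% without (log2 fold change 1.23, adjusted p = 0.092). It was called higher in the reference pool in 5-FC (2.03, adjusted p = 0.0093), in metformin (2.24, adjusted p = 0.0081) and in trifluoperazine (2.61, adjusted p = 0.0017).

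In trifluoperazine strain 838 reached its highest share in these pools. It held 78.4% and 70.9% of PLM2_HNM1 with MTX, against 8.84% and 7.77% without, a log2 fold change of 3.17 (edgeR, adjusted p = 1.4e-05) that was kept without any 1 library. It was also called higher in the other 3 HNM1 pools there, with log2 fold changes of 2.30 to 2.63. Those calls were less firm in HNM1_ERG11, where any 1 library left out ended the call (highest adjusted p = 0.167), and in HNM1_RBD2, where leaving out no MTX replicate B did. In 5-FC it was called higher in PLM2_HNM1 alone among the HNM1 pools (1.68, adjusted p = 0.0027), a call lost without no MTX replicate B. HNM1_MAM33 had 35.6% and 40.3% with MTX, against 24.3% and 24.8% without, in 5-FC (0.63, adjusted p = 0.23). In fluconazole the rise in HNM1_ERG11 turned round, to a log2 fold change of −1.98, without MTX replicate A.

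**Figure D2:**
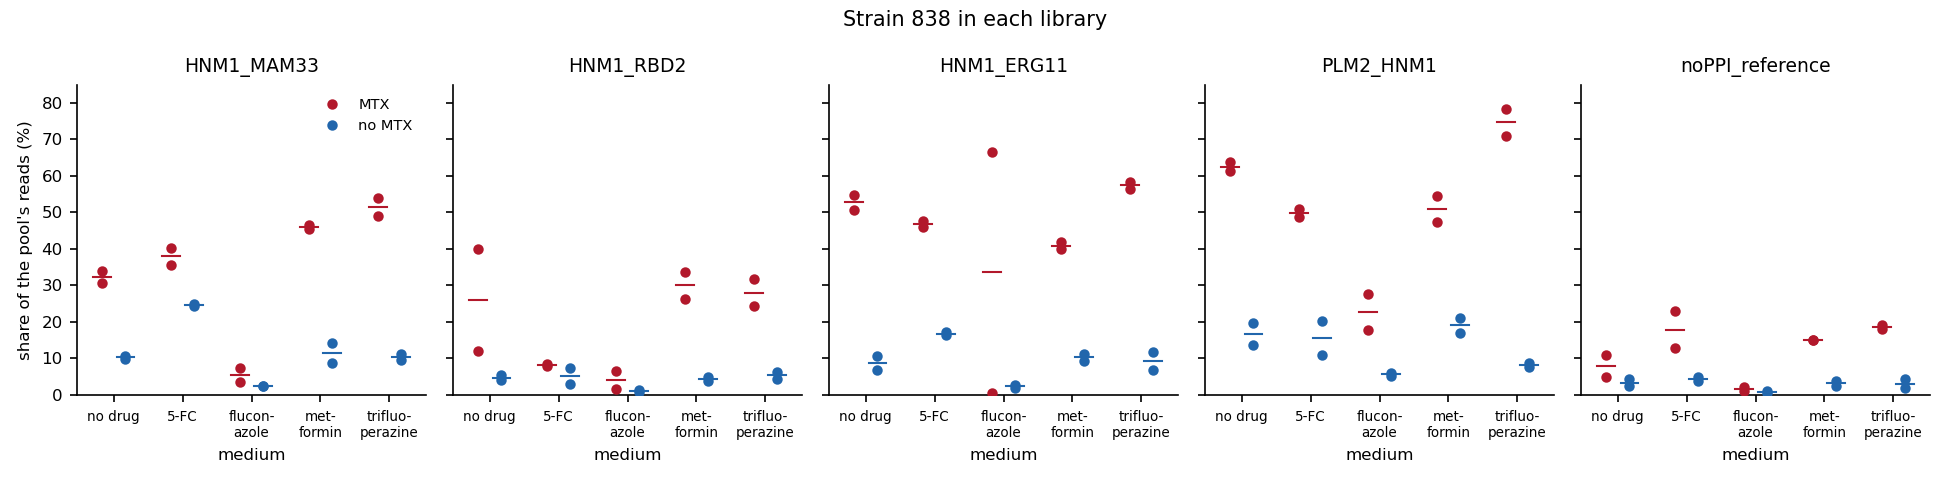
Share of strain 838 in percent of the pool's reads, for the 4 HNM1 pools and noPPI_reference, by medium, with MTX left of no MTX. Points are libraries and bars are means of replicates A and B. The highest points are PLM2_HNM1 in trifluoperazine with MTX (78.4% and 70.9%), and the points of HNM1_ERG11 in fluconazole with MTX lie at 66.6% and 0.608%.

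The next most common strains with MTX were in part shared between partners. In HNM1_MAM33, strain 1069 held 25.7% and 21.1% with MTX, against 3.49% and 1.96% without MTX, in medium without drug. Both replicates with MTX were well above both without, and the log2 ratio of shares was 3.10 with a standard error of 0.49, the form of all ± values on log2 changes here (edgeR, adjusted p = 3e-05). In fluconazole it led the pool, with 40.2% and 31.5% with MTX, against 4.16% and 5.97% without (2.82, adjusted p = 6.9e-05). In metformin the shares were 5.53% and 5.25% with MTX, against 2.49% and 3.25% without, which missed the threshold (0.91, adjusted p = 0.13). Strain 578 was the third of that pool, with 12.1% and 10.6% with MTX, against 1.08% and 0.687% without drug or MTX (3.68 ± 0.51, adjusted p = 9.2e-06). It was also among the 3 most common strains of HNM1_ERG11 with MTX, with a median of 4.46% with MTX, against 0.637% without, over the 10 libraries of each kind. In the reference pool strain 1069 averaged 0.889% with MTX, against 0.244% without, and strain 578 averaged 1.62% with MTX, against 0.393% without (n = 10 each).

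In HNM1_RBD2 no such leader held across replicates in medium without drug. Strain 756, with 36.5% in replicate B of MTX alone, had 0.488% in replicate A, against 0.250% and 0.299% without MTX, and its call (6.08 ± 1.95, adjusted p = 0.012) was lost without that replicate B and without either replicate lacking MTX (highest adjusted p = 0.732). In trifluoperazine the same strain held 15.5% and 10.2% with MTX, against 0.262% and 0.178% without (5.87, adjusted p = 0.015). That call too was lost without either replicate lacking MTX (highest adjusted p = 0.101). Strain 523 was steadier in 5-FC, with 23.6% and 21.0% with MTX, against 1.92% and 1.65% without (3.64, adjusted p = 0.00056). Both its replicates with MTX were more than 10 times as high as those without.

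HNM1_ERG11 and PLM2_HNM1 shared strain 673 as the next most common strain with MTX, and it was called higher in neither. In HNM1_ERG11 without drug it held 9.40% and 9.78% with MTX, against 11.2% and 14.0% without (−0.39, adjusted p = 0.57). In fluconazole it fell there to 0.0638% and 0.0328% with MTX, against 5.03% and 1.36% without (−6.03 ± 0.69, adjusted p = 1.3e-06). In PLM2_HNM1 without drug it held 2.94% and 3.69% with MTX, against 16.1% and 20.3% without (−2.46 ± 0.56, adjusted p = 0.001), a call lost when strain 838 was left out of the pool totals. In metformin its shares in PLM2_HNM1 overlapped, with 17.7% and 13.8% with MTX, against 15.7% and 13.7% without (0.10, adjusted p = 0.91).

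Some strains that were common without MTX almost vanished with it, and were low with MTX in the other HNM1 pools and in the reference pool. Other common strains did not fall so. Over the 5 media, strain 838 averaged 52.1% of PLM2_HNM1 with MTX, against 13.1% without. Strain 673 averaged 7.76% of HNM1_ERG11 with MTX, against 9.28% without. Strain 475 was the second most common of HNM1_MAM33 without MTX, and in medium without drug it held 0.0056% and 0.0073% with MTX, against 8.61% and 5.82% without. It fell by 10.11 ± 0.96 on the log2 scale (edgeR, adjusted p = 3.7e-07). In metformin its shares were 0.312% and 0.243% with MTX, against 9.09% and 9.67% without (−5.08, adjusted p = 6.9e-05). In HNM1_RBD2, strain 731 held 0.135% and 0.0077% with MTX, against 6.46% and 6.21% without (−6.97 ± 1.09, adjusted p = 3e-05). It was called lower in all 5 media, and each of those calls was kept without any 1 library. In PLM2_HNM1, strain 795 held 0.0237% and 0.0420% with MTX, against 4.59% and 5.56% without (−7.30 ± 0.71, adjusted p = 3.9e-07), and it too was called lower in all 5 media. Over the 5 media, strain 475 averaged 0.0691% of HNM1_MAM33, 0.0392% of HNM1_RBD2, 0.202% of HNM1_ERG11 and 0.0213% of PLM2_HNM1 with MTX, against 6.98%, 2.97%, 6.03% and 3.73% without, in the same order of pools (n = 10 libraries each). In the reference pool it averaged 0.0239% with MTX, against 0.915% without. Strains 731 and 795 likewise had lower means with MTX than without in all 4 HNM1 pools and in the reference pool.

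**Figure D3:**
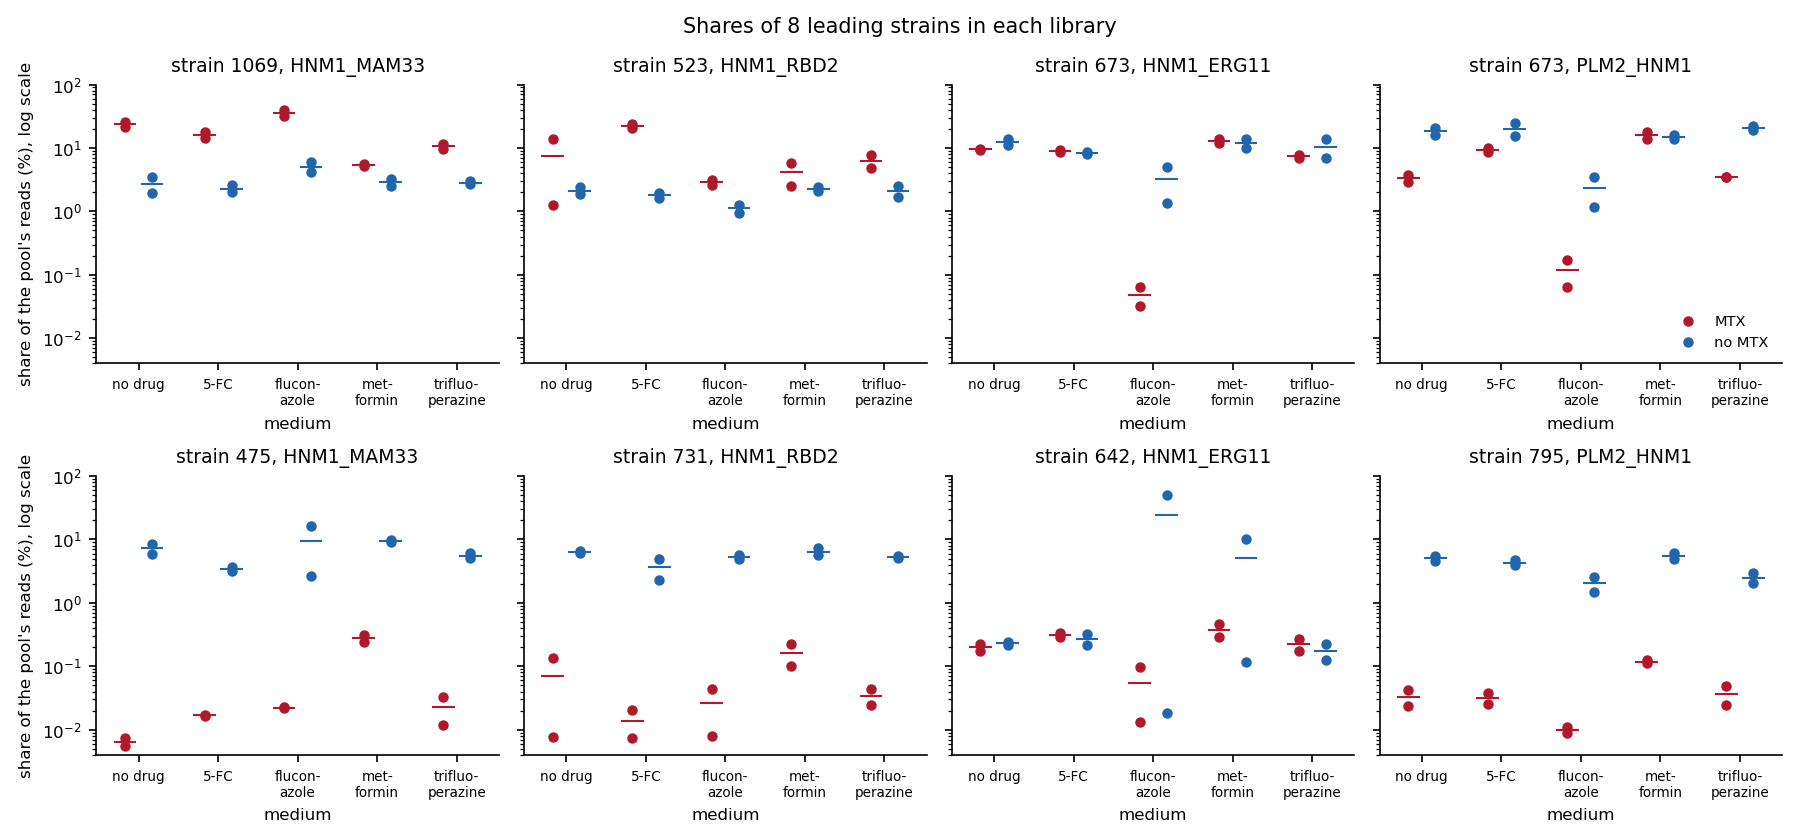
Share in percent of the pool's reads (log axis) of 8 strains, by medium: above, the most common strain with MTX after 838 in each HNM1 pool, and below, of the 3 most common without MTX and not shown above, the one with the lowest fold change without drug, with MTX left of no MTX. Points are libraries and bars are means of replicates A and B. Strain 475 of HNM1_MAM33 without drug lies at 0.0056% and 0.0073% with MTX and at 8.61% and 5.82% without.

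The central comparison of the assay set each strain's share of its pool with MTX against its share without MTX in the same medium. Without drug, 68 of the 954 strains tested in the HNM1 pools were called higher with MTX, which is 7.13% beside 7.31% over all pools, and 496 were called lower, which is 52.0% beside 47.1% over all pools. In 5-FC 72 were higher and 421 lower (over all pools 7.51% and 42.2%). In fluconazole 114 were higher and 407 lower (10.5% and 46.6%). In metformin 32 were higher and 358 lower (5.07% and 30.0%). In trifluoperazine 45 were higher and 494 lower (6.39% and 45.3%). In percent of the strains tested, the HNM1 pools had rises of 7.55% (5-FC), 11.9% (fluconazole), 3.35% (metformin) and 4.72% (trifluoperazine). The falls were 44.1% (5-FC), 42.7% (fluconazole), 37.5% (metformin) and 51.8% (trifluoperazine). With scaling by pool totals they thus lay below the share of all pools in fluconazole and above it in the other 4 media.

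The split of rises and falls depends on scaling, because shares within a pool sum to a constant. The median log2 fold change over all strains and pools was −2.04 without drug, and −0.79 when TMM scaled each pool. With that scaling the 4 HNM1 pools had 150 higher and 394 lower without drug, 190 and 366 in 5-FC, 165 and 329 in fluconazole, 113 and 272 in metformin, and 178 and 349 in trifluoperazine. The rises in metformin and trifluoperazine, below those of all pools with pool totals, then lay above them, with 11.8% beside 11.1% and 18.7% beside 17.9%. The falls in fluconazole also came to lie above those of all pools, with 34.5% beside 33.9%. They were 31.7% beside 26.6% under TMM over whole libraries, and 39.7% beside 46.1% with strain 838 left out of the pool totals. With pool totals that leave out strain 838, a setting chosen after seeing the data, there were 81 higher and 289 lower in metformin and 110 and 391 in trifluoperazine. TMM over whole libraries gave 143 higher and 326 lower without drug, 112 and 317 in 5-FC and 123 and 283 in trifluoperazine. Leaving out 1 library moved the 390 calls in metformin to 244 without MTX replicate A and to 250 without MTX replicate B.

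The pools differed in how many strains moved. HNM1_MAM33 without drug had 18 strains higher and 150 lower of 243, or 69.1% called, the second highest share of 62 pools after the reference pool with 76.6%. Its median log2 fold change of −3.20 was the sixth lowest of the pools. HNM1_RBD2 lay at the other end, with 15 higher and 65 lower of 182, or 44.0%, the 56th highest share, and a median of −1.03. HNM1_ERG11 had 15 higher and 136 lower, and PLM2_HNM1 had 20 higher and 145 lower, with medians of −2.41 and −2.47. In HNM1_RBD2 the split moved to 7 higher and 87 lower without MTX replicate A, the shallow library, and to 26 higher and 37 lower without MTX replicate B. With TMM over whole libraries HNM1_ERG11 turned to 88 higher and 54 lower, with a median of 1.34, while HNM1_MAM33 had 34 higher and 78 lower, HNM1_RBD2 15 and 55, and PLM2_HNM1 6 and 139.

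Across the drugs, PLM2_HNM1 kept the most falls, with 161 in trifluoperazine and 127 in metformin, and its median in trifluoperazine was −3.34, beside −1.83 over all pools. HNM1_RBD2 in fluconazole was the pool with the least downward shift of all 62, with 41 strains higher, 40 lower and a median of −0.11, beside −2.15 over all pools. That balance changed with single libraries: without MTX replicate A there were 26 higher and 39 lower, and without MTX replicate B 39 and 26. It also rests on scaling by pool totals: HNM1_RBD2 had 36 higher and 59 lower with a median of −0.80 under TMM within each pool, where the median of HNM1_ERG11 was −0.64, and 22 and 43 under TMM over whole libraries. HNM1_MAM33 in fluconazole had 31 higher and 108 lower, and HNM1_ERG11 had 23 higher and 124 lower. In HNM1_ERG11 these became 26 and 101 without MTX replicate A, 19 and 125 without MTX replicate B, and 25 and 121 without no MTX replicate B. In metformin, HNM1_MAM33 had 98 calls and HNM1_ERG11 had 100, and leaving out 1 library took these to between 54 and 77 and between 42 and 66.

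**Figure D4:**
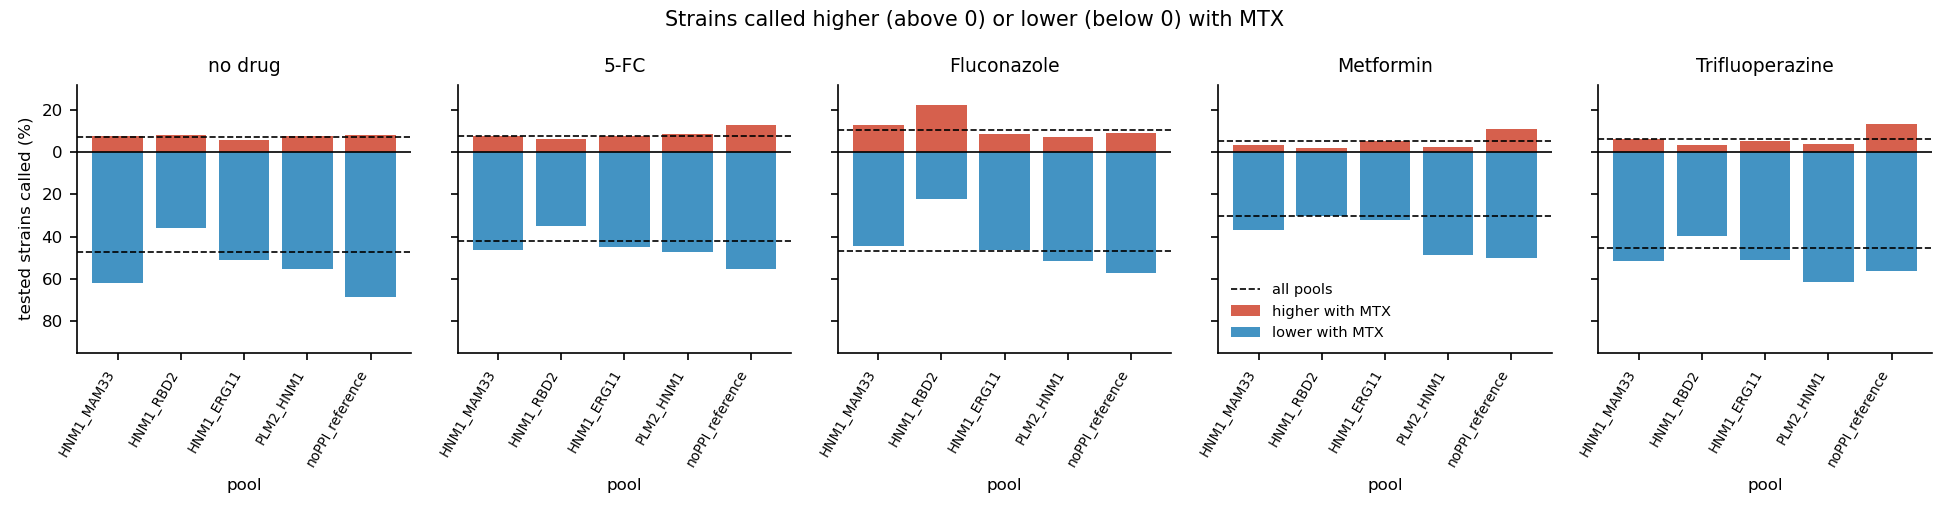
Percent of tested strains called higher (above 0) and lower (below 0) with MTX in each HNM1 pool and in noPPI_reference, by medium. Dashed lines give the same percentages over all 62 pools, and HNM1_RBD2 in fluconazole has nearly equal bars, with 41 strains higher and 40 lower of 182.

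The largest changes in single strains were falls to no reads. In HNM1_MAM33, strain 406 was without a read in replicates A and B with MTX alone, against 877 and 146 reads without MTX, a share at least 660-fold lower (against a floor of 3 reads over both libraries; edgeR, adjusted p = 1.9e-06). In PLM2_HNM1, strain 692 had 0 reads with MTX alone, against 680 and 769 reads without, at least 174-fold lower (adjusted p = 0.0001). In HNM1_RBD2, strain 796 had 0 reads with MTX alone, against 424 and 290 reads without, at least 270-fold lower (adjusted p = 1.4e-05). In HNM1_ERG11, strain 857 had 0 reads and 1 read with MTX alone, against 3.02% and 3.70% of the pool without (adjusted p = 3.8e-07). None of these 4 calls was lost when 1 library was left out.

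In fluconazole, barcode 43_ref1 gave the largest fall in 3 of the 4 pools. It had 0 reads in both replicates with MTX in HNM1_MAM33, against 1573 and 1378 reads without MTX, at least 701-fold lower (adjusted p = 5.4e-07). It had 0 reads with MTX in HNM1_RBD2, against 1275 and 2328 reads without, at least 319-fold lower (adjusted p = 2e-06). In HNM1_ERG11 it had 1 and 2 reads with MTX, against 8.44% and 2.90% of the pool without (adjusted p = 2.9e-05). The same barcode was near absent from HNM1_MAM33 in medium without drug, with 1 and 2 reads with MTX, against 2 and 0 reads without. What the ending of this barcode's name stands for is not stated.

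The largest rises were seen in fluconazole as well. Strain 983 in HNM1_ERG11 held 10.4% and 23.2% with MTX, against 0.0032% and 0.0257% without MTX, a log2 fold change of 10.32 ± 1.03 (adjusted p = 4.2e-07). The same strain held 0.731% and 1.61% of HNM1_MAM33 with MTX, against 0.0086% and 0.0097% without (6.98 ± 0.85, adjusted p = 2.4e-06). Strain 648 held 2.45% and 18.2% of HNM1_RBD2 with MTX, against 0.0353% and 0.0239% without (8.45 ± 1.29, adjusted p = 2.4e-05). Strain 689 held 3.41% and 28.5% of PLM2_HNM1 with MTX, against 0.0088% and 0.0795% without (8.48 ± 1.25, adjusted p = 1.7e-05). The replicates with MTX differed by several fold in HNM1_RBD2 and PLM2_HNM1, yet each lay above both replicates without, and these 4 calls were kept without any 1 library. High shares of strains 983 and 689 with MTX in fluconazole were not particular to the HNM1 pools. In the reference pool there, strain 983 led replicate B with 35.9%, and strain 689 held 13.8% in A and 20.9% in B.

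Outside fluconazole, the top rises included those of strains 999, 252, 459 and 972. In HNM1_MAM33, strain 999 had 164 and 71 reads with MTX alone, against 2 reads and 1 read without MTX, a ratio of shares of 38.7 with an exact 95% counting interval of 13.1 to 189 (edgeR, adjusted p = 0.00074). In PLM2_HNM1, strain 252 had 114 and 40 reads with MTX alone, against 0 and 4 reads without (6.77 ± 1.35, adjusted p = 0.00029). In HNM1_RBD2 in 5-FC, strain 459 held 1.10% and 2.98% with MTX, against 0.0046% and 0.0054% without (8.62 ± 1.98, adjusted p = 0.0011). In HNM1_MAM33 in trifluoperazine, strain 972 held 0.590% and 11.5% with MTX, against 0.151% and 0.139% without (5.38, adjusted p = 9.8e-05). Of the 40 largest changes, 1 in each direction per pool and medium, 31 were still called without any 1 library, among them 19 of the 20 falls and 12 of the 20 rises.

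Of the 158 strains tested in all 4 HNM1 pools, 38 were called lower with MTX in every one without drug and 2 were called higher in every one. The 2 were strains 972 and 838. Strain 972 held 2.25% and 2.19% of HNM1_MAM33 with MTX, against 0.190% and 0.0973% without MTX (3.92 ± 0.88, edgeR, adjusted p = 0.0009). It held 0.450% and 0.369% of HNM1_ERG11 with MTX, against 0.0666% and 0.0615% without (2.67 ± 0.61, adjusted p = 0.001). It held 0.643% and 0.861% of PLM2_HNM1 with MTX, against 0.0821% and 0.0772% without (3.24 ± 0.62, adjusted p = 0.00022). In HNM1_RBD2 the call rested on 32 and 17 reads with MTX, against 1 and 6 reads without, and was lost without MTX replicate A and without no MTX replicate A.

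Among the shared falls, strain 701 was the deepest on average. It had 3 and 0 reads with MTX in HNM1_MAM33, against 1.99% and 1.59% of the pool without MTX. It had 0 reads with MTX in both replicates of the other 3 pools, where its share was at least 87.9-fold lower in HNM1_RBD2, 265-fold lower in HNM1_ERG11 and 58.6-fold lower in PLM2_HNM1. Strains 692, 796, 798 and 857 followed, each called lower in all 4 pools. Of these 5 strains every call was kept without any 1 library, except strain 692 in HNM1_RBD2 (highest adjusted p = 0.051, without MTX replicate B). Falls shared by all 4 pools were largely falls in the reference pool too, with 36 of the 38 called lower there, beside 223 of the 325 strains tested in that pool. In 5-FC 38 strains fell in all 4 pools, in metformin 30, in trifluoperazine 40 and in fluconazole 18.

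In medium without drug, 4 of the 158 strains were called in opposite directions in different HNM1 pools, and none held up in every setting. Strain 557 had 16 and 5 reads with MTX in HNM1_RBD2, against 3 and 3 reads without MTX (3.33, adjusted p = 0.032), and fell in the other 3 pools. Its rise in HNM1_RBD2 became −0.31 without MTX replicate A. Strain 740 held 0.131% and 0.252% of PLM2_HNM1 with MTX, against 0.0203% and 0.0313% without (2.87 ± 0.91, adjusted p = 0.011). It held 0.0040% and 0.0021% of HNM1_MAM33 with MTX, against 0.0295% and 0.115% without (−4.41 ± 0.98, adjusted p = 0.00078). The rise was lost without MTX replicate B and without no MTX replicate A, and the fall was lost under TMM over whole libraries. Strains 409 and 523 each had 1 or more calls that a single library or another scaling ended.

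Strain 409 in HNM1_RBD2 changed direction between media. In 5-FC it held 20.9% and 23.7% with MTX, against 2.33% and 4.40% without MTX (2.73 ± 0.62, edgeR, adjusted p = 0.001). In fluconazole it held 0.125% and 0.0403% with MTX, against 41.9% and 55.3% without (−9.23 ± 0.84, adjusted p = 1.9e-07). Without drug it held 0.707% and 0.245% with MTX, against 2.68% and 2.17% without (−2.39 ± 0.62, adjusted p = 0.0028). In each of these media the groups did not overlap, and the call without drug was lost without MTX replicate B and under TMM scaling within each pool or over whole libraries.

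Partners were then compared directly, as the difference between the MTX effects of the same strain in 2 HNM1 pools. Over the 6 pairs of pools there were 1190 such differences per medium, adjusted together. Without drug 83 were called, or 6.97%, in 5-FC 75, or 6.3%, in metformin 34, or 2.86%, and in trifluoperazine 91, or 7.65%. Fluconazole gave 333, or 28.0%. In fluconazole, 52 of 167 strains lay higher in HNM1_RBD2 than in PLM2_HNM1 and 6 lower, and 42 of 173 lay higher in HNM1_RBD2 than in HNM1_ERG11 and 9 lower. HNM1_MAM33 had 4 strains higher and 38 lower than HNM1_RBD2 there. Under TMM within each pool the split over all 6 pairs in fluconazole turned to 127 higher and 161 lower, in place of 205 and 128 with the first-named pool minus the second.

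Outside fluconazole these counts did not stand without single libraries. Without drug, 12 differences were called without no MTX replicate A and 2 without no MTX replicate B, while 59 and 78 were called without MTX replicates A and B. In 5-FC 23 and 12 were called without MTX replicates A and B, and 2 and 0 without no MTX replicates A and B. In trifluoperazine the same 4 settings gave 12, 4, 0 and 1, and in metformin 0, 0, 3 and 0. In fluconazole they gave 191, 291, 293 and 290, so the 333 there fell by over 1.5 times without MTX replicate A alone. They also fell to 188 with the library as a term and to 14 when only the libraries compared were fitted. Each of these fits estimated the spread anew from the libraries it used.

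The one largest difference between partners without drug that was kept in every such setting was that of strain 252. It had 0 reads in both replicates with MTX in HNM1_MAM33, against 43 and 2 reads without MTX. It had 114 and 40 reads with MTX in PLM2_HNM1, against 0 and 4 reads without. The strain thus had reads without MTX and none with it in the first pool, and the reverse order in the other (edgeR, adjusted p of the difference = 8.2e-05). Strain 521 fell in HNM1_ERG11, to 0.0009% and 0.0010% with MTX, against 0.230% and 0.115% without, and had 0.0167% and 0.0490% with MTX in PLM2_HNM1, against 0.0101% and 0.0178% without. That difference, −8.52 ± 1.79 (adjusted p = 0.0038), was lost without either replicate lacking MTX. Of the 12 largest differences between partners without drug, 1 was still called without any 1 library.

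The reference pool, which names no protein pair, served to ask which MTX effects were unlike those of the same strain there. In 923 strains tested in both an HNM1 pool and the reference pool, the MTX effect without drug was higher in 125 and lower in 49. That is 13.5% and 5.31%, beside 22.0% and 4.75% over all pools. In 5-FC 52 were higher and 41 lower (over all pools 13.2% and 5.02%). In fluconazole 131 were higher and 90 lower (14.3% and 11.9%). In metformin 53 were higher and 16 lower (14.0% and 3.14%). In trifluoperazine 54 were higher and 98 lower (11.9% and 8.14%). The HNM1 pools thus had smaller shares of strains above the reference pool than all pools had, except in fluconazole, where the shares were close.

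By pool, HNM1_RBD2 without drug had 41 strains higher and 9 lower than the reference pool, with a median difference of 2.10. PLM2_HNM1 had 35 higher and 9 lower (median 1.24), HNM1_ERG11 27 and 15 (1.14), and HNM1_MAM33 22 and 16 (0.82), beside a median of 1.56 over all pools. Under TMM within each pool the 4 pools together had 59 higher and 78 lower, so the direction of this split depends on the scaling. The total of 174 fell to 74 without MTX replicate A, 68 without no MTX replicate A and 77 without no MTX replicate B. HNM1_RBD2 had 8 higher and 14 lower without MTX replicate A and 48 higher and 4 lower without MTX replicate B. In 5-FC the total of 93 became 27 to 55, in metformin 69 became 17 to 27 and in trifluoperazine 152 became 60 to 69, whichever single library was left out. In fluconazole the total of 221 became 168 to 191 without 1 library, 131 with the library as a term and 13 when only the libraries compared were fitted. Under TMM within each pool the split in fluconazole was 165 higher and 63 lower, in metformin 92 and 12, and in trifluoperazine 98 and 66. With strain 838 left out of the pool totals there were 214 higher and 34 lower without drug, and 105 and 50 in trifluoperazine.

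**Figure D5:**
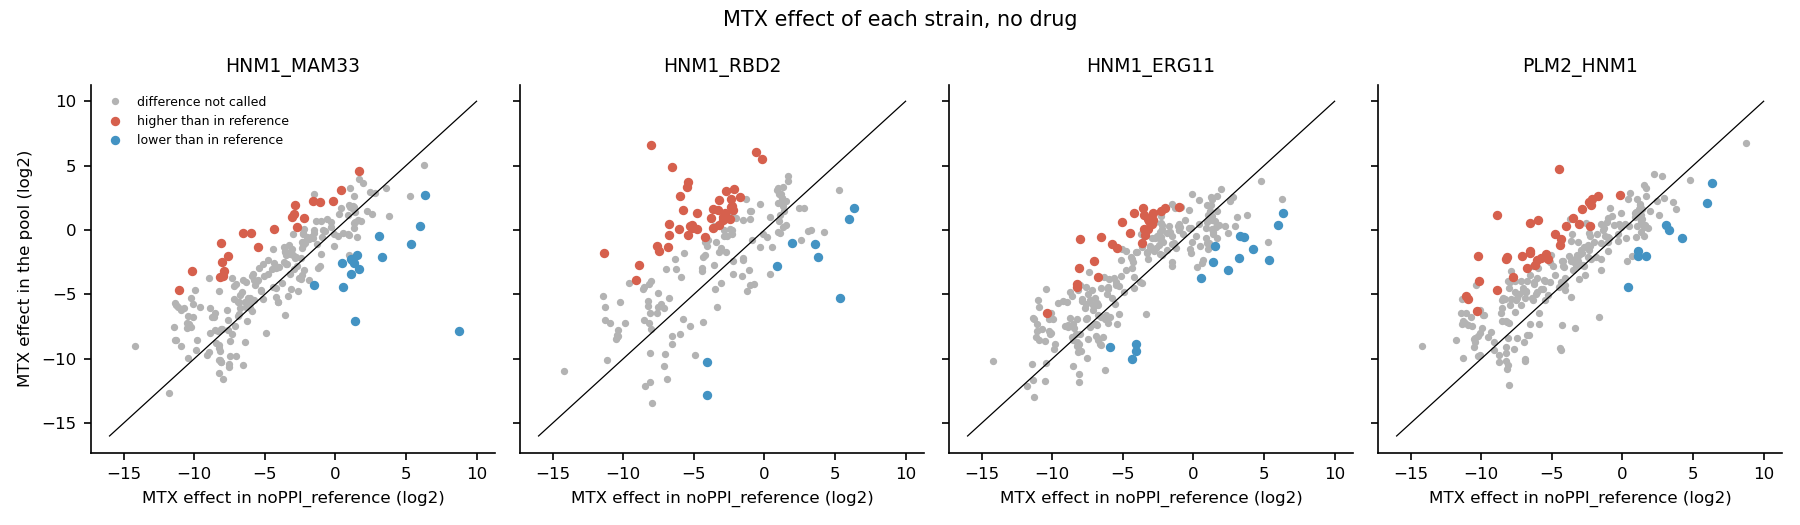
MTX effect of each strain (log2 of its share with MTX over its share without, no drug) in an HNM1 pool on the vertical axis and in noPPI_reference on the horizontal axis, 1 panel per HNM1 pool. Red points were called higher than in the reference pool, blue points lower and grey points were not called, and the line marks equal effects. HNM1_RBD2 has 41 red and 9 blue points.

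Single strains differed from the reference pool by large factors. Strain 252, with 0 reads in HNM1_MAM33 with MTX alone, held 28.8% and 25.8% of the reference pool with MTX, against 0.0283% and 0.0882% of the reference pool without MTX (edgeR, adjusted p of the difference = 4.4e-05). Strain 412 had no reads and 0.0328% in HNM1_RBD2 with MTX alone, against 0.993% and 0.874% without. In the reference pool it held 3.17% and 2.37% with MTX, against 0.0754% and 0.0636% without. The fall in HNM1_RBD2 and the rise in the reference pool differed by −10.65 ± 1.74 (adjusted p = 4.5e-05), and the same strain differed by −7.65 ± 1.26 in HNM1_ERG11 (adjusted p = 7.9e-05).

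Strain 521 did the opposite in PLM2_HNM1. Beside its values in PLM2_HNM1, given above, it held 0.0112% and 0.0230% of the reference pool with MTX alone, against 11.4% and 4.44% without MTX. The difference between the pools was 10.00 ± 1.56 (adjusted p = 4.5e-05). In fluconazole, strain 192 held 0.0847% and 0.0692% of HNM1_MAM33 with MTX, against 0.0151% and 0.0169% without. It held 0.207% and 0.435% of HNM1_RBD2 with MTX, against 0.0144% and 0.0057% without. In the reference pool it held 0.0261% and 0.0255% with MTX, against 19.8% and 21.4% without. The strain thus rose in both HNM1 pools and fell in the reference pool, with differences of 11.89 ± 1.53 for HNM1_MAM33 (adjusted p = 1.5e-06) and 14.65 ± 1.87 for HNM1_RBD2 (adjusted p = 8e-07).

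In trifluoperazine, strain 983 held 0.0914% and 0.194% of PLM2_HNM1 with MTX, against 0.0740% and 0.0877% without MTX. It held 3.77% and 6.82% of the reference pool with MTX, against 0.0377% and 0.0177% without, a difference of −6.78 ± 0.97 (adjusted p = 1e-05). Strain 64 held 0.0774% and 0.176% of PLM2_HNM1 with MTX, against 0.0096% and 0.0244% without, and 0.0047% and 0.0080% of the reference pool with MTX, against 0.351% and 0.248% without (difference 8.59 ± 1.09, adjusted p = 3.3e-06). The differences named for strains 252, 412, 521, 192, 983 and 64 were kept without any 1 library. Of the 40 largest differences from the reference pool, 1 in each direction per pool and medium, 23 were kept in this way. A difference of this kind can come from either pool, and for strains 192, 521 and 983 the change lay mainly in the reference pool. Strain 64 also changed more in the reference pool than in PLM2_HNM1. Strain 252 rose steeply in the reference pool, while its fall in HNM1_MAM33 rested on few reads.

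Whether a drug altered the MTX effect was tested as the MTX effect in the drug minus that without drug, within each pool. Fluconazole altered 247 of the 954 strains, or 25.9%, beside 25.0% over all pools. Of these 166 were higher, meaning less of a fall or more of a rise with MTX in fluconazole, and 81 were lower (over all pools 13.9% and 11.1%). The balance varied by partner, with 55 higher and 20 lower in HNM1_MAM33, 52 and 23 in HNM1_ERG11, 38 and 6 in HNM1_RBD2, and 21 and 32 in PLM2_HNM1. The contrast between partners rests on scaling by pool totals: under TMM within each pool PLM2_HNM1 had 37 higher and 17 lower, HNM1_MAM33 35 and 31, HNM1_ERG11 41 and 34, and HNM1_RBD2 27 and 14. Under TMM over whole libraries PLM2_HNM1 had 26 higher and 6 lower, HNM1_MAM33 12 and 18, HNM1_ERG11 7 and 52, and HNM1_RBD2 10 and 7. In HNM1_ERG11 the split was 51 to 19 without fluconazole with MTX A, 34 to 26 without its replicate B, and 50 to 30 without fluconazole alone B. Without MTX replicate B of the medium without drug, the total was 157, and without the 2 replicates lacking both MTX and drug it was 161 and 163, leaving out 1 at a time. HNM1_RBD2 had 76 calls without its shallow library with MTX alone, replicate A, and 16 without replicate B. With TMM over whole libraries the split turned to 55 higher and 83 lower.

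Metformin altered 113 strains, or 11.8%, beside 11.8% over all pools, and 96 of them were higher and 17 lower (over all pools 10.8% and 1.01%). HNM1_MAM33 had 40 of these calls, HNM1_ERG11 39, PLM2_HNM1 19 and HNM1_RBD2 15. Every single library left out moved the total by over 1.5 times, to 59 and 57 without MTX with metformin A and B, 64 and 44 without MTX alone A and B, 40 and 35 without metformin alone A and B, and 54 and 55 without the untreated A and B. TMM within each pool gave a split of 42 to 17, and 3 calls were left with TMM over whole libraries. In 5-FC 1 strain was called, beside 0.0939% over all pools. It was strain 409 in HNM1_RBD2, whose values are given above (5.12 ± 0.88, edgeR, adjusted p = 0.029), and this call was kept in 2 of 8 fits that leave out 1 library. In trifluoperazine 0 were called by edgeR, as over all pools (0.0%). There, 86 had an unadjusted p under 0.05 and DESeq2 called 4.

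Strains that fell to no reads with MTX alone, and kept reads with MTX in fluconazole, were among the largest differences between fluconazole and no drug. Strain 701 in HNM1_ERG11 held 0.0087% and 0.128% in fluconazole with MTX, against 0.0511% and 0.171% in fluconazole without MTX (adjusted p of the difference = 0.00061), and had no reads with MTX alone. In HNM1_RBD2 it held 0.0564% and 0.0121% in fluconazole with MTX, against 0.0401% and 0.0171% without MTX (adjusted p = 0.00039). In HNM1_MAM33, strain 973 had 11 and 6 reads in fluconazole with MTX, against 9 and 20 reads without MTX, and without drug it had 0 reads with MTX, against 120 and 18 reads without (adjusted p = 0.00045). In each case the groups overlapped in fluconazole and were apart without drug. The reverse was seen for strain 400 in HNM1_RBD2, with 0 reads in fluconazole with MTX, against 0.616% and 1.15% without MTX, and 0.656% and 0.0560% with MTX alone, against 0.0893% and 0.0982% without drug or MTX (adjusted p = 0.00017).

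In metformin, strain 399 of HNM1_ERG11 held 0.105% and 0.131% with MTX, against 0.298% and 0.328% without MTX, while without drug it had 0 reads with MTX, against 74 and 64 reads without (adjusted p of the difference = 0.00037). Strain 495 of HNM1_MAM33 held 0.0264% and 0.113% in metformin with MTX, against 0.872% and 0.776% without MTX, and without drug had 1 and 0 reads with MTX, against 0.828% and 0.612% without (6.72 ± 1.46, adjusted p = 0.0056). Both falls were shallower in metformin. Of the 16 largest differences between a drug and no drug, 9 were kept without any 1 library, among them those of strains 701, 973, 400, 399 and 495 given here. The difference for strain 495 was lost under TMM over whole libraries.

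The partners also occur in other pools, which show how the same partner behaved without HNM1. In medium without drug, the pool of MID2, a cell wall stress sensor, with MAM33 had 19 strains higher and 161 lower with MTX of 280. The pool of ERV25, a p24 cargo protein, with RBD2 had 11 higher and 109 lower of 218. In fluconazole, where HNM1_RBD2 had 41 higher and 40 lower, it had 18 and 111. The pool of PLM2 with SNA3 had 18 higher and 85 lower of 186. ERG11 pools without HNM1 ranged widely, with 8 higher and 155 lower of 272 with ACF2 and 16 higher and 59 lower of 271 with ERV25. In the 5 other pools with HNM1, paired with FMP45, MID2, TPO1, TPO2 or TPO4, 16 to 29 strains were higher and 100 to 135 lower. Over all pools, 7.31% of the strains tested were higher and 47.1% lower without drug, and 10.5% and 46.6% in fluconazole.

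Of a list of 20 genes of phospholipid, inositol and sterol synthesis, 4 are in the pools, and they lie in 15 pools, among them HNM1_ERG11. Of the 4137 strains tested there, 242 (5.85%) were higher and 1782 (43.1%) lower with MTX without drug, beside the 7.31% and 47.1% over all pools. In fluconazole 497 (12.01%) were higher and 1556 (37.6%) lower, beside 10.5% and 46.6% over all pools. In metformin 144 (3.48%) were higher and 892 (21.6%) lower, beside 5.07% and 30.0% over all pools. The median over the 15 pools of the pool's median log2 fold change was −1.75 without drug, beside −1.97 over all 62 pools.

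As a description of likeness, fitted MTX effects were correlated between pools over strains and the 5 media. The pool most like HNM1_ERG11 was HNM1_MID2, with Pearson's r of 0.828 over 1270 points. For HNM1_MAM33 it was FMP45_MEP1 with 0.807, for PLM2_HNM1 FMP45_MID2 with 0.799, and for HNM1_RBD2 MID2_RSN1 with 0.733. Among the 4 HNM1 pools the 6 values of r ran between 0.646 and 0.786 with a median of 0.719, beside a median of 0.672 over all 1830 pairs of named pools. The median over the 223 pairs of pools that share a protein was close, at 0.711. Pools share strains and libraries. After each strain's median over named pools was subtracted, the median over the 6 pairs was 0.0231. It was −0.0188 over all pairs of named pools and 0.0484 over pairs that share a protein. The highest remaining values were 0.259 for HNM1_ERG11 with HNM1_MID2, 0.269 for PLM2_HNM1 with FMP45_MID2 and 0.244 for PLM2_HNM1 with PLM2_SNA3.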

How the data were processed

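The deposited values were raw read counts per strain barcode and pool in 21 libraries, per the files. The labels name barcode amplification from genomic DNA. How reads were filtered and assigned to barcodes is not given in the sources used here. No molecular identifiers are mentioned, so counting intervals and floors cover counting error only. Groups came from the sample titles.

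Counts of the 15974 barcode-by-pool combinations averaging 10 or more reads in the 20 libraries of 96 h entered edgeR 4.0.16 (R 4.3.3). Its quasi-likelihood test was used with a coefficient for each group, and log pool totals served as offsets. Benjamini-Hochberg adjustment ran over all combinations tested in a comparison, and an adjusted p under 0.05 is a call. MTX effects were differenced against the same strain in the reference pool, between HNM1 pools and between a drug and no drug. Effective numbers of strains were compared by two-sided exact permutation within media (NumPy 2.4.6). Exact counting intervals were computed with SciPy 1.17.1. A fold against a group without reads uses a floor of 3 reads over its 2 libraries.

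The alternatives were TMM scaling within pools or over whole libraries, other filters, DESeq2 1.42.0, fits of only the libraries compared, a library term, the replicate letter as a block, the inverse Simpson index, leaving out each library and, added after seeing the data, pool totals without strain 838. Leave-out fits against the reference pool kept the spread estimated from all libraries, and those between HNM1 pools estimated it anew. The scripts were tested on simulated counts. Named strains are those with the largest called change in each direction per pool and medium, the most common strains of each pool, and those with the largest differences from the reference pool, between pools or from no drug. They include strains called alike or oppositely in all 4 pools. The members, lists and tests were chosen with earlier results of these data known. Correlations of replicate deviations between same-letter libraries lay between −0.14 and 0.14, so letters were not taken as pairs. All 44 protein names matched a locus tag in RefSeq's yeast gene table.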

Additional observations from a re-analysis of the deposited data

Results flagged for a closer look

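By a test of the difference, the MTX effect differed between a drug and no drug in 1 strain of the HNM1 pools for 5-FC. It did so in 247 for fluconazole and in 113 for metformin. These were 0.105%, 25.9% and 11.8% of the strains tested, beside 0.0939%, 25.0% and 11.8% over all pools. Leaving out 1 library took the 113 in metformin to between 35 and 64. Narrowing with MTX differed from that of the reference pool by −0.7122 on the log2 scale in HNM1_MAM33, by −0.7348 in HNM1_ERG11 and by −1.0032 in PLM2_HNM1, again by a test of the difference (exact permutation within media). The difference of HNM1_ERG11 was still called in 10 of the 20 fits that leave out 1 library. What lies behind these differences was not tested.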

How the results depend on the processing

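Over the results that answer a comparison, 329 recomputed values kept their direction and side of the threshold, or stayed within 1.5 times for a count, and 112 did not. Counts below are strains called in the 4 HNM1 pools. With MTX against no MTX, a mean of at least 50 reads, which tests fewer strains, gave 350 calls without drug, 313 in 5-FC, 242 in metformin and 345 in trifluoperazine. Fitting only the libraries compared gave 277 in fluconazole, and TMM over whole libraries 221 in metformin. Leaving out 1 library gave 465 to 512 (no drug), 402 to 434 (5-FC), 443 to 481 (fluconazole), 244 to 306 (metformin) and 461 to 471 (trifluoperazine).

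Against the reference pool, at least 50 reads gave 99 calls (no drug), 46 (5-FC), 145 (fluconazole), 28 (metformin) and 97 (trifluoperazine). At least 1 read gave 186 in 5-FC, 130 in metformin and 232 in trifluoperazine. Only the libraries compared gave 253 (5-FC), 13 (fluconazole), 146 (metformin) and 237 (trifluoperazine). The library as a term gave 131 in fluconazole, and TMM within pools 104 in metformin. Leaving out 1 library gave 68 to 134 (no drug), 27 to 55 (5-FC), 168 to 191 (fluconazole), 17 to 27 (metformin) and 60 to 69 (trifluoperazine).

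Between partners, at least 50 reads gave 44 calls without drug, 47 in 5-FC and 58 in trifluoperazine, and at least 1 read gave 115 in 5-FC. Only the libraries compared gave 55 (no drug), 216 (5-FC), 14 (fluconazole), 145 (metformin) and 196 (trifluoperazine). The library as a term gave 35 (no drug), 49 (5-FC), 188 (fluconazole), 9 (metformin) and 36 (trifluoperazine). Leaving out 1 library gave 2 to 78 (no drug), 0 to 23 (5-FC), 191 to 293 (fluconazole), 0 to 3 (metformin) and 0 to 12 (trifluoperazine).

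For a drug against no drug, the 1 call in 5-FC became 0 with TMM within pools, with TMM over whole libraries and without strain 838 in the totals, 2 with no filter, 8 with only the libraries compared and 12 with DESeq2. Fluconazole gave 138 with TMM over whole libraries and 84 with only the libraries compared. Metformin gave 3 with TMM over whole libraries, 59 with TMM within pools and 186 with only the libraries compared. Trifluoperazine gave 4 with DESeq2. Leaving out 1 library gave 0 to 3 (5-FC), 157 to 245 (fluconazole), 35 to 64 (metformin) and 0 to 2 (trifluoperazine). The cause of these changes was not tested.

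Without 1 library the effective number of strains differed by −48.9 to −45.1 in HNM1_MAM33, −32.3 to −27.5 in HNM1_RBD2, −47.7 to −39.8 in HNM1_ERG11, −42.6 to −39.2 in PLM2_HNM1 and −64.5 to −52.0 in the reference pool. Narrowing against the reference pool gave −0.83 to −0.59 in HNM1_MAM33, −0.029 to 0.30 in HNM1_RBD2, −0.95 to −0.52 in HNM1_ERG11 and −1.13 to −0.88 in PLM2_HNM1. By the inverse Simpson index HNM1_RBD2 gave −0.25. With the replicate block narrowing in HNM1_ERG11 kept its value of −0.73 at an adjusted p of 0.0964. The replicate block gave 556 calls with MTX (no drug), 483 (5-FC), 518 (fluconazole), 381 (metformin) and 536 (trifluoperazine), and 2 in 5-FC against no drug. It left the other counts of calls within 1.5 times.

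Of the values for single strains, 14 changed sign, and the ranges without 1 library are given here. Strain 124 in HNM1_ERG11 (fluconazole minus no drug) gave −9.84 to 3.42, strain 642 there −10.87 to 1.64 in fluconazole and −12.78 to 2.05 against the reference pool, and strain 838 there −1.98 to 4.79 in fluconazole. Strain 359 in PLM2_HNM1 gave −13.31 to 0.64 (metformin minus no drug) and −12.24 to 2.11 (metformin, against the reference pool). Without drug, strain 523 in HNM1_RBD2 gave −0.75 to 2.68, strain 557 there −0.31 to 4.48, strain 77 in HNM1_MAM33 against the reference pool −1.64 to 10.32, strain 459 in HNM1_MAM33 minus HNM1_RBD2 −9.13 to 0.55 and strain 253 in HNM1_RBD2 minus HNM1_ERG11 −4.09 to 15.32. TMM over whole libraries gave 0.64 for strain 740 in HNM1_ERG11 and 0.70 for strain 523 in HNM1_MAM33, and TMM within pools 0.41 for strain 523 there. The shallowest library of an HNM1 pool, in HNM1_RBD2, had 5944 reads.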
